A study of Mus musculus with 8 samples.

Results

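The GABA-A receptor subunit genes described here are *Gabra2*, *Gabra3*, *Gabra4*, *Gabra5*, *Gabrb1*, *Gabrb2* and *Gabrd*, which are 7 of the 50686 genes in the count table. They were found by their symbols in the GENCODE M21 annotation of GRCm38, and all 7 were in the table and passed the filter on low counts. mRNA was sequenced from the ventral hippocampus of 8 male mice aged 8 weeks, of which 4 received an injection of vehicle (libraries 1 to 4) and 4 received 3 mg/kg corticosterone (libraries 5 to 8), the main glucocorticoid of rodents. The strain is given as C57B6/J in the labels, and the methods name the C57BL/6 J strain. All mice were killed 3 h after the injection, and each library came from 1 mouse. Mice were housed in groups of 4, and the methods name no transgene and no removal of the adrenal glands in either group. The question was which of these genes differed in mRNA level between corticosterone and vehicle.

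The GABA-A receptor is a chloride channel built as a ring of subunits around a pore, and it mediates most fast inhibition in the hippocampus. The alpha and beta chains form the binding sites for GABA, and most synaptic receptors also hold a gamma chain. The alpha 2 chain is found mainly at synapses, and the alpha 3 chain is common in some interneurons. The alpha 5 chain is abundant in hippocampal pyramidal cells and lies mainly outside synapses. The delta chain replaces gamma in receptors outside synapses, which in dentate granule cells are built with alpha 4, give a lasting (tonic) current and are sensitive to neurosteroids.

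The 7 genes lie on 5 chromosomes of GRCm38. *Gabra2* (ENSMUSG00000000560, chr5:70957597-71095849, minus strand), *Gabra4* (ENSMUSG00000029211, chr5:71569749-71658308, minus strand) and *Gabrb1* (ENSMUSG00000029212, chr5:71658113-72149037, plus strand) form a cluster. *Gabra4* and *Gabrb1* stand head to head, with 5′ ends that overlap by 196 bases in GENCODE, of which 46 are exonic in both genes. *Gabra3* (ENSMUSG00000031343) lies at chrX:72432681-72656848 on the minus strand, and *Gabra5* (ENSMUSG00000055078) at chr7:57407672-57510059 on the minus strand. *Gabrb2* (ENSMUSG00000007653) lies at chr11:42419757-42629028 on the plus strand, and *Gabrd* (ENSMUSG00000029054) at chr4:155384980-155398112 on the minus strand. *Gabrd* is the shortest locus, with 13.1 kb against 490.9 kb for *Gabrb1*, and its longest transcript has the highest GC content of the 7, with 54.7%. The lowest GC content was that of *Gabra2*, with 38.4%, followed by *Gabrb1* with 40.9% and *Gabra4* with 42.2%. An antisense gene shares 148 exonic bases with *Gabra5* (4.976% of its exons) and had 15 to 26 reads in a library. Whether the counting used the strand is not given in the sources used here, so reads in the bases shared by *Gabra4* and *Gabrb1* may be assigned to neither or to either.

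Promoter sequences from RefSeq (GRCm38.p6, 250 bases before to 50 bases after each annotated start) were matched by symbol for 6 of the 7 genes, in 10 windows, with no entry for *Gabrd*. The windows were searched on both strands for the palindromic glucocorticoid response element, the 6-base core AGAACA of that element, which reads as TGTTCT on the opposite strand, and an E-box of the type bound by NEUROD factors. The letters of that E-box are CAGATG, and no matches of these motifs overlapped in the windows shown. The full element was found in 0 of the 10 windows, and 0.475% of all 32851 promoter windows hold it. The single arm was found in 2 windows, both of *Gabrb2*, and 19.0% of all windows hold it. The E-box was found in 1 window, that of *Gabra5*, and 17.2% of all windows hold it. The windows below are shown because *Gabra4* and *Gabrb1* share a head-to-head start region and because the *Gabra5* and *Gabrb2* windows hold the matches, which are in capitals. In RefSeq the first start of *Gabrb1* lies 387 bases inside the transcribed part of *Gabra4*. A second start of *Gabrb1*, whose window is not shown, lies 42011 bases from the first and outside *Gabra4*. The *Gabra4* window is chr5:71658259-71658558 (minus strand), the first *Gabrb1* window chr5:71657671-71657970 (plus strand), the *Gabra5* window chr7:57510010-57510309 (minus strand), and the *Gabrb2* windows are chr11:42420190-42420489 and chr11:42420951-42421250 (plus strand).
*Gabra4*: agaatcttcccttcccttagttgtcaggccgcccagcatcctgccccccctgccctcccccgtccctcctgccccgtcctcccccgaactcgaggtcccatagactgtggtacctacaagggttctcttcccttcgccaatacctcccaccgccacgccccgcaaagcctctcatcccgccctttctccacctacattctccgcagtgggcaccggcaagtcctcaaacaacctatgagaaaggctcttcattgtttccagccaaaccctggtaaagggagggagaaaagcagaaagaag
*Gabrb1*: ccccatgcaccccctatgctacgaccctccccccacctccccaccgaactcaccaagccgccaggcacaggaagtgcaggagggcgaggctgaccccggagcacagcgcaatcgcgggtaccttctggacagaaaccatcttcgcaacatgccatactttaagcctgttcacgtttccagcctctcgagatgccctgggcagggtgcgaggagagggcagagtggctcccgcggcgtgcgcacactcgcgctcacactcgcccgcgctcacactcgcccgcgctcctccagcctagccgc
*Gabra5*: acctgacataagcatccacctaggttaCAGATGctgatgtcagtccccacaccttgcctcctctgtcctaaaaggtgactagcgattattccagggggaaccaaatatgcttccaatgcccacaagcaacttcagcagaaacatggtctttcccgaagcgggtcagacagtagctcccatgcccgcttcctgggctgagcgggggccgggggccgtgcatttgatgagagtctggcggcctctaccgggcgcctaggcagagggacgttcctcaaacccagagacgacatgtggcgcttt
*Gabrb2*, first window: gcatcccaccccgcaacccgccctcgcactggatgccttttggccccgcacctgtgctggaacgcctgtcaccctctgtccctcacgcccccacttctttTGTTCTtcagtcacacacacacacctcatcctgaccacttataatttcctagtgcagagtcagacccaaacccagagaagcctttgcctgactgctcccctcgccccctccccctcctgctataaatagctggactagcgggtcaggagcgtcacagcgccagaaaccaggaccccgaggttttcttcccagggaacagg
*Gabrb2*, last window: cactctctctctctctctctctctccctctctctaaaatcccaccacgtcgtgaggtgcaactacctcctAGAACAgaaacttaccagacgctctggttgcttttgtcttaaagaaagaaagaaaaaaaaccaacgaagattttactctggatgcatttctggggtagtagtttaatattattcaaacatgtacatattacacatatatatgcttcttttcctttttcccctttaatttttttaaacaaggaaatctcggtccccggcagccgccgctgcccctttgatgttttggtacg
A match is a description of the letters and not a binding site, and a window without a match says nothing of sites elsewhere. The GC content of the windows was lowest in *Gabra3* (39.3%), and that of the first *Gabrb1* window (66.0%) was second to *Gabra2*. The median of all windows was 52.7%.

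The libraries held 17492159 to 19931987 reads on genes, and the members had between 323 reads (*Gabrd*) and 6806 reads (*Gabra2*) in a library. *Fkbp5*, a chaperone gene induced by glucocorticoids, checked the labels. Its normalised read count (CPM, the reads of a gene scaled by the library's total and TMM factor) was 89.2 to 124 after vehicle and 166 to 183 after corticosterone (log2 fold change 0.76, edgeR adjusted p = 0.0481). The first principal component of the libraries (33.7% of the variance) placed corticosterone replicate 5, with a score of -19.2, beside vehicle replicates 1 to 3 (-24.8 to -8.33) and apart from corticosterone replicates 6 to 8 (18.9 to 23.5). Vehicle replicate 4 had a score of 5.11. The results below that rest on corticosterone replicate 5 are therefore given with and without it.

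The subunits were expressed at very different levels. To compare genes, CPM were divided by the length of the exons in kb, and this length-scaled level was highest for *Gabra5*, with 73.5 ± 7.43 CPM per kb in the vehicle mice (SD, n = 4). *Gabra2* followed with 38.9 ± 3.37 and *Gabra3* with 27.5 ± 4.27. Each of these 3 alpha chain genes was above the next one in all 8 libraries, and their ranges in the vehicle mice did not overlap. *Gabrb2* (16.5 ± 2.15), *Gabrb1* (15.0 ± 1.61) and *Gabra4* (14.8 ± 1.63) had overlapping ranges and were not separated by the spread between mice. *Gabrb2* was above *Gabrb1* in 5 of the 8 libraries, and *Gabrb1* above *Gabra4* in 6. *Gabrd* was lowest with 7.33 ± 0.723, below *Gabra4* in 8 of 8 libraries and 2.02-fold lower on average. Among all genes tested, the length-scaled level of *Gabra5* was at the 96.6th percentile and that of *Gabrd* at the 60.0th.

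The length used decides part of this order. With the longest annotated transcript in place of all exons, a choice made after seeing the data, *Gabra5*, *Gabra2* and *Gabra3* stayed at the top (81.9, 50.7 and 29.5 CPM per kb in the vehicle mice) and *Gabrd* stayed lowest (7.78). *Gabra4* then lay above *Gabrb1* in 8 of 8 libraries (21.9 against 15.1), and the range of *Gabra3* overlapped that of *Gabrb2* (26.3).

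**Figure D1:**
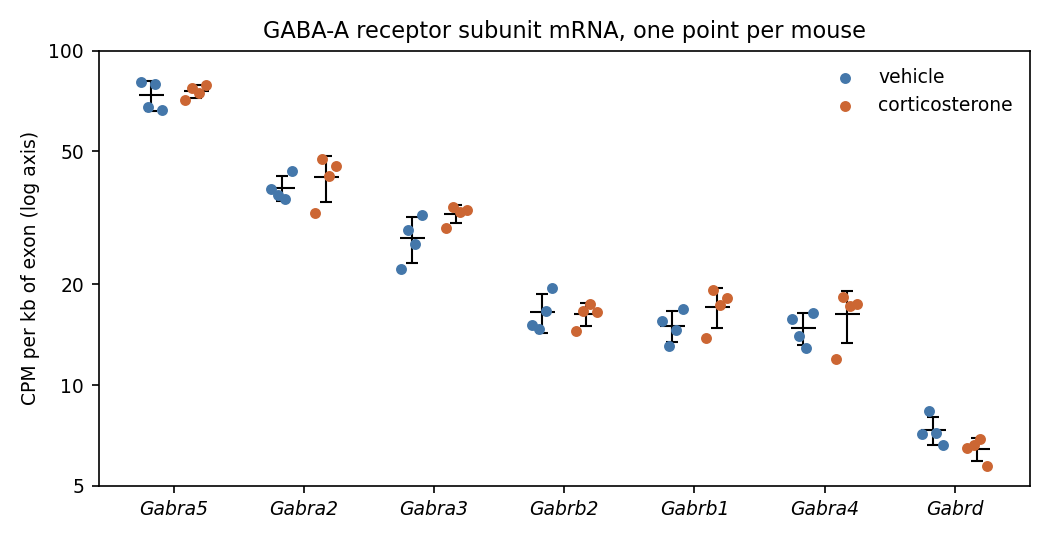
Length-scaled mRNA level (CPM per kb of exon, log axis) of the 7 subunit genes, with one point per mouse and black bars for the mean and SD of 4 mice per group. *Gabra5* lies highest (66.5 to 80.4 over the 8 mice), *Gabrd* lowest (5.72 to 8.34), and *Gabrb2*, *Gabrb1* and *Gabra4* overlap.

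Within the 4 alpha chain genes described here, *Gabra5* made up 47.5% ± 4.57 of the length-scaled level in the vehicle mice (SD, n = 4) and 45.6% ± 2.35 in the corticosterone mice. *Gabra2* had 25.1% ± 1.76 and 25.1% ± 1.88. The share of *Gabra3* was 17.8% ± 2.82 after vehicle and 19.6% ± 0.589 after corticosterone, and that of *Gabra4* was 9.54% ± 0.900 and 9.73% ± 1.02. For each of the 4 genes, the ranges of the groups overlapped. Other alpha chain genes are outside this total. Between the beta chain genes, *Gabrb1* had 46.5% to 50.6% of their summed level in the vehicle mice and 48.7% to 53.4% in the corticosterone mice. With the longest transcript as the length, these shares of *Gabrb1* were 35.5% to 39.3% and 37.5% to 42.0%, so that *Gabrb2* was the larger part in all 8 libraries on that scale.

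**Figure D2:**
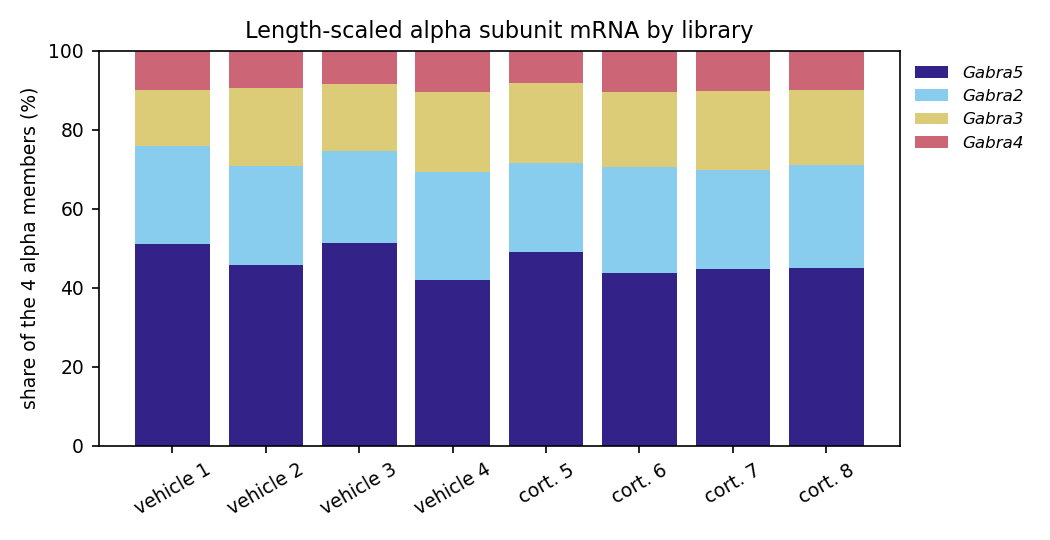
Share of each alpha chain gene in the summed length-scaled level of the 4 alpha genes (percent), one bar per library, vehicle libraries 1 to 4 and corticosterone (cort.) libraries 5 to 8. *Gabra5* holds 41.8% to 51.3% in every library, and the order of the 4 genes is the same in all 8.

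After corticosterone, no subunit gene passed an adjusted p value of 0.05. The count was 0 of 7 with the quasi-likelihood test of edgeR (Benjamini-Hochberg adjustment over all 16018 genes tested, of which 0.00624% were called), and also 0 of 7 with limma-voom and with DESeq2, which called 0.374% of all genes. At an unadjusted p value under 0.05 there was 1 of 7 in edgeR, *Gabra3*, where 9.03% of all genes were. This count rested on single libraries. It was 4 of 7 without corticosterone replicate 5 (29.0% of all genes), 3 of 7 without vehicle replicate 4 (15.3%), and 1 without vehicle replicate 2 (6.63%). It was 0 without vehicle replicate 1 (7.33%) or 3 (5.17%) and without corticosterone replicate 6 (4.69%), 7 (5.76%) or 8 (5.05%). The values of the groups overlapped in all 7 genes, and did not overlap in 3.66% of all genes tested. The log2 fold change was positive in 5 genes and negative in 2, with a median of 0.11 against 0.0036 over all genes tested. In bulk tissue, a change in the number of cells that carry a subunit and a change in RNA per cell cannot be told apart.

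*Gabra3*, an alpha chain gene of interneurons among other cells, had the largest difference. Its values were 87.1, 114, 104 and 127 CPM in vehicle libraries 1 to 4 and 116, 133, 129 and 131 CPM in corticosterone libraries 5 to 8. Vehicle replicate 1 was the lowest of the 8 libraries, and 3 of the 4 corticosterone libraries were above every vehicle library. The mean was 108 ± 16.8 CPM after vehicle and 127 ± 7.85 CPM after corticosterone (SD, n = 4 each), a log2 fold change of 0.24 with a 95% interval from 0.02 to 0.46 (standard error 0.102, edgeR adjusted p = 0.545, exact permutation test two-sided p = 0.0571). The smallest p value that 4 mice against 4 allow is 0.0286. The interval is not adjusted for the number of genes. Without vehicle replicate 1 the log2 fold change of *Gabra3* was 0.15 (95% interval -0.05 to 0.34), and with the other mice left out in turn it was at most 0.32.

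*Gabrd*, the delta chain of tonic receptors, was the only one of the 7 genes with lower values in all corticosterone libraries than the vehicle mean. It had 20.5, 24.0, 20.7 and 19.1 CPM in the vehicle libraries and 18.7, 19.0, 19.8 and 16.4 CPM in the corticosterone libraries. Corticosterone replicate 7 lay above vehicle replicate 4, so the groups overlapped. The mean was 21.1 ± 2.08 CPM after vehicle and 18.5 ± 1.45 CPM after corticosterone, a log2 fold change of -0.19 with a 95% interval from -0.40 to 0.03 (standard error 0.0993, edgeR adjusted p = 0.546, exact permutation p = 0.0571). Without vehicle replicate 2, the highest library, the log2 fold change of *Gabrd* was -0.12 (95% interval -0.34 to 0.10).

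*Gabra4*, the usual partner of delta in the dentate gyrus, had 96.4, 85.1, 78.3 and 99.7 CPM after vehicle and 72.7, 112, 105 and 106 CPM after corticosterone. Corticosterone replicate 5 was the lowest of all 8 libraries and the other 3 corticosterone libraries were the highest. The log2 fold change was 0.14 (95% interval -0.13 to 0.41, edgeR adjusted p = 0.673). Its head-to-head neighbour *Gabrb1*, a beta chain gene, had 214, 181, 202 and 234 CPM after vehicle and 191, 265, 240 and 251 CPM after corticosterone. Here too corticosterone replicates 6 to 8 were above all vehicle libraries and corticosterone replicate 5 was not. The log2 fold change of *Gabrb1* was 0.19 (95% interval -0.04 to 0.42, edgeR adjusted p = 0.555).

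*Gabra2*, the synaptic alpha chain gene of the same cluster, had 295, 283, 276 and 334 CPM after vehicle and 249, 362, 322 and 346 CPM after corticosterone. Corticosterone replicate 5 was again the lowest library, and vehicle replicate 4 lay among the other corticosterone libraries. The log2 fold change was 0.11 (95% interval -0.13 to 0.34, edgeR adjusted p = 0.710).

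*Gabra5* and *Gabrb2* had the smallest differences in the main edgeR fit, which used all 8 mice, no covariate and no removal of a trend. *Gabra5* had 239, 202, 237 and 198 CPM after vehicle and 212, 230, 222 and 235 CPM after corticosterone, so that all corticosterone values lay within the vehicle range. Its log2 fold change was 0.04, with a 95% interval from -0.13 to 0.21 (edgeR adjusted p = 0.858). *Gabrb2*, the other beta chain gene, had 96.3, 93.5, 106 and 124 CPM after vehicle and 92.5, 106, 111 and 105 CPM after corticosterone, a log2 fold change of -0.02 with a 95% interval from -0.22 to 0.19 (edgeR adjusted p = 0.953). These intervals leave room for differences of that size in either direction. The variation between vehicle mice was 8.68% to 15.5% of the mean in the 7 genes, and the median over all genes tested was 10.4%.

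**Figure D3:**
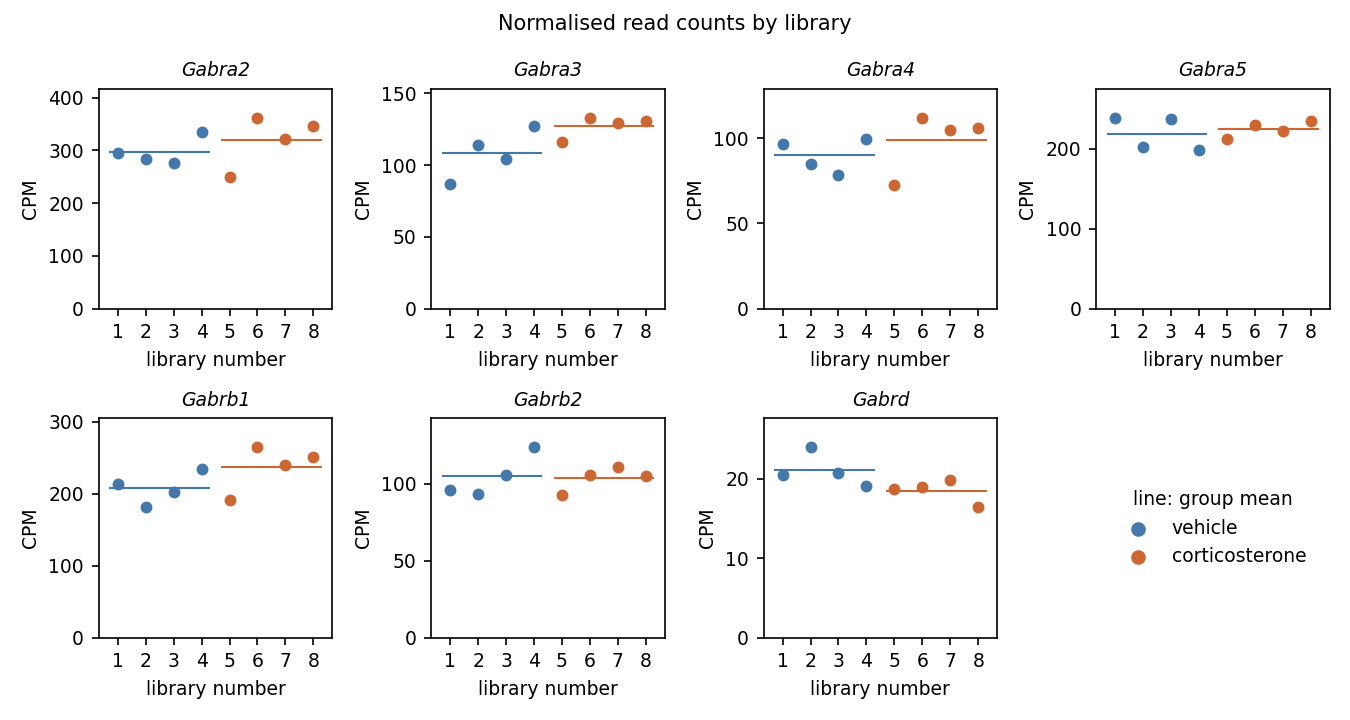
Normalised read counts (CPM) of each subunit gene in libraries 1 to 4 (vehicle) and 5 to 8 (corticosterone), with a line at the mean of each group and the axis starting at 0. In *Gabra2* and *Gabra4*, corticosterone library 5 is the lowest of the 8, while libraries 6 to 8 have 322 to 362 and 105 to 112 CPM.

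Without corticosterone replicate 5, 1 of the 7 genes passed the threshold, *Gabrb1*, with a log2 fold change of 0.28 and an adjusted p value of 0.0417 in edgeR. In that fit 10.2% of all genes were called, so 1 of 7 is near the background. The log2 fold changes of *Gabra2*, *Gabra3* and *Gabra4* in that fit were 0.21, 0.28 and 0.26, with edgeR adjusted p values of 0.0806, 0.0756 and 0.0535. The values of the groups then did not overlap in 3 genes (*Gabra3*, *Gabra4* and *Gabrb1*), and in 24.4% of all genes. With the trend of each library with transcript GC content and length removed as well, an alternative chosen after seeing the data, 0 of the 7 genes were called in edgeR, where 1.31% of all genes were, and *Gabrb1* had a log2 fold change of 0.06.

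The differences moved with measures of the libraries. When the trend of each library with transcript GC content and length was removed, the median log2 fold change of the 7 genes was -0.02, with 3 genes positive and 0 called, where 0.131% of all genes were called. The log2 fold change of *Gabra2* was then -0.04 (95% interval -0.14 to 0.06), that of *Gabrb1* 0.04 (-0.06 to 0.15) and that of *Gabra4* 0.04 (-0.12 to 0.19). *Gabra3* had 0.15 (-0.02 to 0.32), *Gabrd* -0.12 (-0.30 to 0.07) and *Gabrb2* -0.09 (-0.24 to 0.05). When the percentage of ambiguous reads (those that HTSeq could assign to more than 1 gene) entered the model as a covariate, 6 of the 7 genes had a negative log2 fold change. In that fit 0 of the 7 were called, where 0.237% of all genes were, and 3 had an unadjusted p value under 0.05, where 11.7% of all genes had. The largest difference was that of *Gabrb2*, with -0.32 (95% interval -0.53 to -0.12, edgeR adjusted p = 0.196). *Gabra4* had -0.31 (-0.59 to -0.03) and *Gabra2* -0.29 (-0.52 to -0.06). The values of *Gabra3* and *Gabrd* were -0.03 (-0.28 to 0.23) and -0.05 (-0.36 to 0.27). That percentage was between 1.40 and 1.67 after vehicle and between 1.25 and 1.48 after corticosterone. The sign of *Gabra2*, *Gabra3*, *Gabra4*, *Gabra5* and *Gabrb1* thus depended on the model, that of *Gabrd* and *Gabrb2* was negative in both, and the part of these measures in the differences was not tested.

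**Figure D4:**
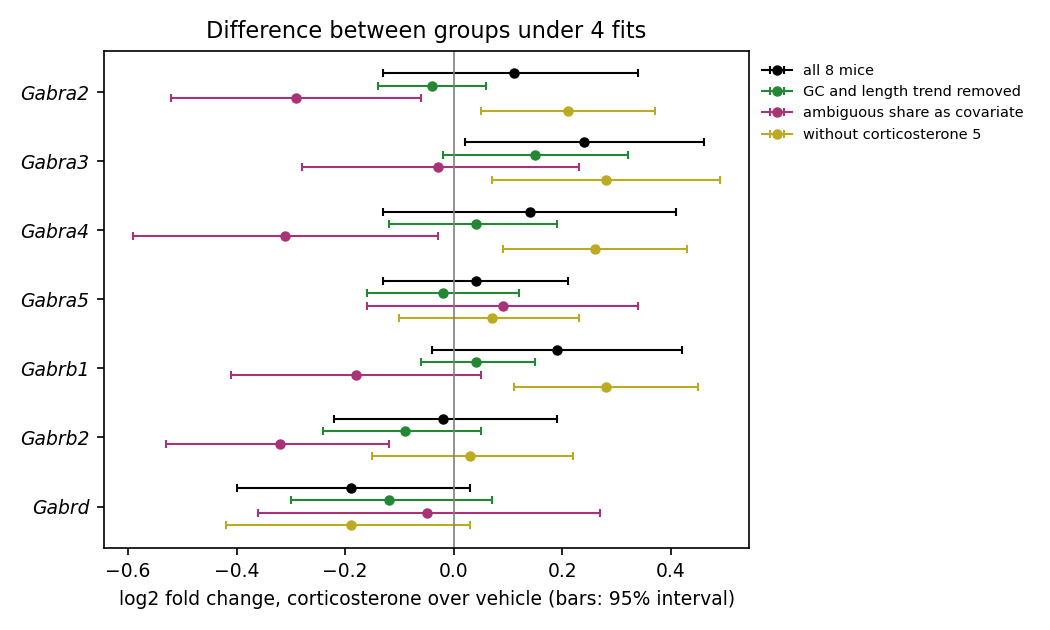
Log2 fold change of each subunit gene (corticosterone over vehicle, points) with its 95% interval (bars) in 4 edgeR fits, given by colour. The points of *Gabra2*, *Gabra4* and *Gabrb1* lie above 0 with all 8 mice, between -0.04 and 0.04 with the GC content and length trend removed, and below 0 with the ambiguous share as covariate.

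Ratios of subunits within a mouse do not depend on the scaling of the library. They were taken from CPM not divided by length, so their sign does not give which gene has the higher length-scaled level. The log2 ratio of *Gabrd* to *Gabra4* was -2.23, -1.82, -1.92 and -2.38 in the vehicle mice and -1.96, -2.55, -2.40 and -2.69 in the corticosterone mice. Corticosterone replicate 5 lay among the vehicle mice, and the groups overlapped. The difference was -0.31 (standard error 0.21, exact permutation test two-sided p = 0.143, 0.214 adjusted over the 3 ratios). Without corticosterone replicate 5 the groups did not overlap and the difference was -0.46, with an exact permutation p of 0.0571, the smallest that 4 mice against 3 allow. With the GC content and length trend removed it was -0.15 (exact permutation p = 0.229). For *Gabrb2* to *Gabrb1*, the log2 ratio was -0.99 ± 0.11 after vehicle and -1.18 ± 0.13 after corticosterone (SD, n = 4 each), a difference of -0.20 (standard error 0.085, exact permutation p = 0.0857, adjusted p = 0.214), and of -0.13 with that trend removed. For *Gabra5* to *Gabra2*, it was -0.44 ± 0.24 and -0.49 ± 0.18, a difference of -0.05 (standard error 0.15, exact permutation p = 0.771). Without corticosterone replicate 5 the differences of these ratios were -0.24 and -0.14 (exact permutation p = 0.0857 and 0.343). With 4 mice in each group, a single fully separated ratio among the 3 has an adjusted p value of 0.0857, so this test could not call 1 ratio alone.

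**Figure D5:**
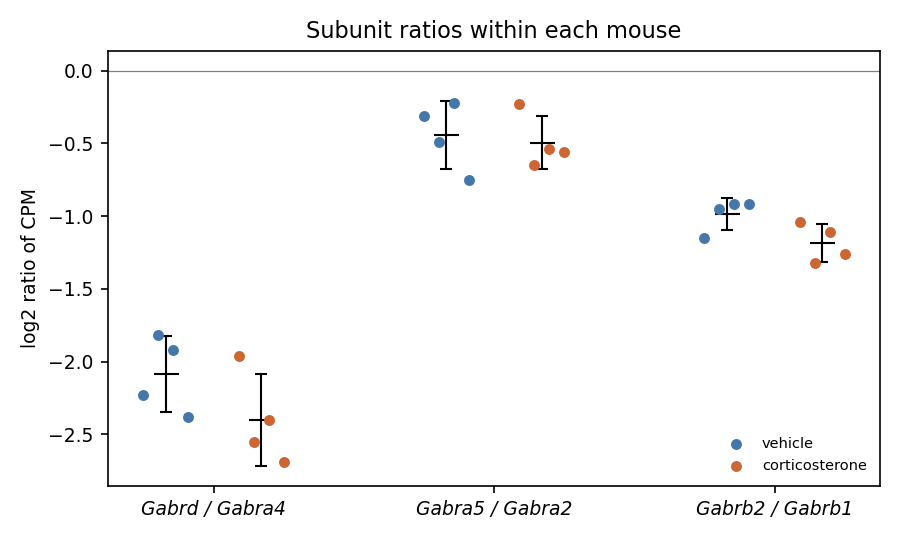
Log2 ratio of the CPM of 2 subunit genes within each mouse (points), with black bars for the mean and SD of 4 mice per group. The groups overlap in all 3 ratios, and corticosterone replicate 5 is the highest corticosterone point in each.

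The genes whose levels followed those of the members most closely over the 8 libraries were found by Pearson's r of log2 CPM among all genes tested, as a description. They were *Akap11* for *Gabrb1* (r = 0.994), *Ufl1* and *Dram2* for *Gabra4* (0.993 each), *Lig3* for *Gabrb2* (0.979), *Map3k14* for *Gabrd* (0.973) and *Wdr53* for *Gabra5* (0.972). These libraries fall apart on the first principal component, and the genes were picked as the highest of all, so the values carry no test.

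The other GABA-A receptor subunit genes were described in the same fit. Of 12 further subunit genes, 7 passed the filter on low counts, 0 were called by edgeR, 0 had an unadjusted p value under 0.05, and 0 were called by DESeq2. Over all genes tested these shares were 0.00624%, 9.03% and 0.374%. All 7 had a positive log2 fold change (0.05 to 0.42, median 0.14), as had 50.7% of all genes, but this was so in 4 of 7 with the GC content and length trend removed and in 2 of 7 with the ambiguous share as covariate. Among them were *Gabrg1* (log2 fold change 0.16) and *Gabrg3* (0.05), which code for gamma chains. *Gabrq*, the theta chain gene, had 11 to 26 reads per library and a log2 fold change of 0.42 (standard error 0.282). The other 5 genes did not pass the filter, with 0 reads for *Gabrp* and 9 to 42 reads over the 8 libraries for *Gabra6*, *Gabre*, *Gabrr1* and *Gabrr3*.

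The machinery around the receptor was described by lists of genes, each tested in the same fit. Over all genes, 9.03% had an unadjusted p value under 0.05, and the lists below had shares of 1 in 8 or fewer. Of 8 genes for GABA synthesis, packaging, uptake and breakdown, 0 were called and 1 had an unadjusted p value under 0.05. This was *Slc6a11*, an astrocyte GABA transporter, with 187 ± 7.38 CPM after vehicle and 170 ± 6.86 CPM after corticosterone (SD, n = 4 each), a log2 fold change of -0.14 (edgeR adjusted p = 0.545). Its values did not overlap between the groups, as in 3.66% of all genes tested. *Gad1*, an enzyme that makes GABA, had 373 ± 20.7 and 374 ± 11.9 CPM. Of 17 genes for scaffold, trafficking and auxiliary proteins, 0 were called and 1 had an unadjusted p value under 0.05, *Nlgn2*, an adhesion protein of inhibitory synapses, with 224 ± 19.2 and 192 ± 20.9 CPM (log2 fold change -0.22, edgeR adjusted p = 0.529). *Gabarapl1* and *Gabarap*, which code for a relative of the GABA-A receptor-associated protein and for the protein itself, had log2 fold changes of 0.02 and 0.03 (edgeR adjusted p = 0.922 and 0.881).

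In the lists of the 2 chloride transporters, the 5 GABA-B receptor genes and the 7 neurosteroid synthesis genes (6 tested), 0 genes were called by edgeR and 0 had an unadjusted p value under 0.05. *Slc12a5*, the chloride exporter that keeps GABA inhibitory in neurons, had 549 ± 52.5 CPM after vehicle and 502 ± 76.1 CPM after corticosterone. *Gabbr1* and *Gabbr2*, the subunits of the GABA-B receptor, had log2 fold changes of -0.06 and -0.01. *Srd5a1* and *Srd5a3*, of the steroid 5-alpha-reductase family, had 11.8 ± 2.43 and 18.9 ± 1.61 CPM after vehicle, with log2 fold changes of 0.05 and 0.13. The median log2 fold changes of the lists were between -0.02 and 0.02, and over all genes tested the median was 0.0036.

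All markers of dentate granule cells, CA1 and CA3 pyramidal cells and GABAergic neurons passed the filter on low counts. The summed level of 6 dentate granule cell markers was 324 to 360 CPM after vehicle and 289 to 374 CPM after corticosterone, and that of 7 markers of GABAergic neurons was 951 to 1063 and 946 to 1048 CPM. The lowest dentate sum, 289 CPM, was that of corticosterone replicate 5, the library in which *Gabra4* was lowest. Other libraries did not pair in this way. Corticosterone replicate 8 had the next lowest sum, 320 CPM, with *Gabra4* at 106 CPM, above every vehicle library. Vehicle replicate 3 had a sum of 357 CPM with *Gabra4* at 78.3 CPM, its lowest vehicle value. The sum of 3 CA1 markers was 306 to 453 CPM after vehicle, and after corticosterone it was 454 CPM in replicate 5 and 314 to 327 CPM in replicates 6 to 8. That of 3 CA3 markers was 110 to 159 and 115 to 152 CPM. The sum of 4 microglia markers was 227 to 238 CPM after vehicle and 159 to 218 CPM after corticosterone, and that of 3 endothelial markers 68.1 to 72.4 and 55.3 to 62.3 CPM. In both of these lists, and in no other marker list, the groups did not overlap. Among single genes tested, the groups did not overlap in 3.66%. Of the 7 marker genes in both lists, 0 passed an adjusted p value of 0.05 in edgeR and 3 had an unadjusted p value under 0.05. The dentate granule cell, CA1, astrocyte and choroid plexus lists had 1 such gene each, the GABAergic, CA3 and thalamus lists had 0, and 9.03% of all genes tested were past that value. The sums of 5 astrocyte markers (1344 to 1476 and 1304 to 1408 CPM) and of 4 thalamus markers (34.1 to 87.0 and 32.8 to 101 CPM) overlapped. So did those of 5 oligodendrocyte markers (2884 to 5064 and 2826 to 3490 CPM), of which all 5 had a negative log2 fold change (median -0.24) and 2 an unadjusted p value under 0.05, and those of the choroid plexus markers (21.5 to 68.2 and 32.2 to 70.7 CPM), with a median log2 fold change of 0.91 in the 4 that were tested. The part of cell composition in the levels of the subunit genes was not tested.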

How the data were processed

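Messenger RNA from the ventral hippocampus was sequenced for 8 mice, 4 per group. The authors aligned stranded paired-end reads to mm10 with GSnap, used HTSeq-count to count reads over genes, and deposited raw read counts without normalization. The annotation release and the strand setting of the counting are not given in the sources used here. Rows that name no gene (reads without a feature, ambiguous or not aligned) held 13.7% to 15.4% of each library and were left out. All 8 columns were mapped by their titles.

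Of 50686 identifiers, 50376 were found in GENCODE M21. Genes were kept with filterByExpr (16018), normalized with TMM and tested with the quasi-likelihood test of edgeR 4.0.16 (R 4.3.3), with Benjamini-Hochberg adjustment over all genes tested and a threshold of 0.05. Standard errors were taken from the F statistic, and log2 CPM used a prior count of 2. Single values were compared with an exact permutation test over the 70 assignments. The study used DESeq2; DESeq2 1.42.0 and limma 3.58.1 (voom) were run as alternatives, with other normalizations and filters, subtraction of each library's trend over transcript length and GC content (natural splines, 5 df), the ambiguous share as a covariate, and each mouse left out in turn. The fit was tested on simulated data with 200 changed genes.

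The 7 genes and the lists were chosen with earlier results of these data known. Genes from the lists were named where their unadjusted p value was under 0.05 or their length-scaled level was among the 2 highest of a list; *Gabrg1*, *Gabrg3* and *Gabrq* and the subunit genes with few reads were named after their values were seen. Further genes that the rule names are left out here, among them some of those most like a member.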

Additional observations from a re-analysis of the deposited data

Results flagged for a closer look

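In 20 sets of 4 values (the 7 genes and the 3 ratios, each in either group), 1 set held a value that stood apart from its group. By chance, about 1 of 20 would. The log2 ratio of *Gabrb2* to *Gabrb1* was -1.15 in vehicle replicate 1 and between -0.95 and -0.92 in the other vehicle mice. This value lies within the range of the corticosterone mice (-1.32 to -1.04).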

How the results depend on the processing

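No paired analysis was possible because the groups share no replicate number. Removing the GC content and transcript length trend reversed *Gabra2* (-0.04) and *Gabra5* (-0.02), and the ratio of *Gabra5* to *Gabra2* (0.03). The ambiguous share as a covariate reversed *Gabra2* (-0.29), *Gabra3* (-0.03), *Gabra4* (-0.31) and *Gabrb1* (-0.18). Removing the trend without corticosterone replicate 5, chosen after seeing the data, gave -0.02 for *Gabra2* and -0.01 for *Gabra5*. With each mouse left out in turn, log2 fold changes were 0.04 to 0.21 for *Gabra2*, 0.15 to 0.32 for *Gabra3*, 0.07 to 0.26 for *Gabra4*, -0.01 to 0.08 for *Gabra5*, 0.13 to 0.28 for *Gabrb1*, -0.07 to 0.07 for *Gabrb2* and -0.24 to -0.12 for *Gabrd*. The reversals were those of *Gabra5* without vehicle replicate 4 and of *Gabrb2* without vehicle replicate 4 or corticosterone replicate 5. The differences in ratio were -0.46 to -0.21 for *Gabrd* to *Gabra4*, -0.16 to 0.02 for *Gabra5* to *Gabra2* and -0.25 to -0.15 for *Gabrb2* to *Gabrb1*. The number of the 7 genes called was 0 to 1, and that of all genes was 1, and 0 to 1651 with a mouse left out. It was 1651 without corticosterone replicate 5 and 19 without vehicle replicate 1. It was 63 with DESeq2, 79 with no filter, 0 with at least 10 reads in every sample, 21 with the trend removed, 38 with the ambiguous share and 211 with the trend removed and without corticosterone replicate 5. The cause of these differences was not tested.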

Other observations

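The edgeR standard errors of the subunit genes fell when the trend with GC content and transcript length was removed. They come from the test statistic and are not the spread within a group, which did not fall in every case. Around their mean, the vehicle log2 values of *Gabra5* ran from -0.14 to 0.13 with the trend kept. With the trend removed they ran from -0.16 to 0.15. The standard error of the log2 fold change was lower in 7 of 7 genes, as in 86.8% of all genes. For *Gabra2* it went from 0.107 to 0.0472 (a ratio of 0.441) and for *Gabrb1* from 0.105 to 0.0492 (0.470), where the median ratio over all genes was 0.864. For *Gabra5* (0.842) and *Gabrd* (0.872) the ratio was near that median.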
